A study of Homo sapiens with 4 samples.

Results

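JUN, JUNB and JUND encode the 3 Jun proteins, the partners with which Fos proteins such as Fra-1 form the transcription factor AP-1. The peaks described here are those that overlap 1 of 3 windows drawn around these genes on hg19, namely chromosome 1, 59200000 to 59300000 (JUN), chromosome 19, 12880000 to 12925000 (JUNB), and chromosome 19, 18370000 to 18415000 (JUND). The windows held 53 of the 57601 peaks listed in the series, with 19 at JUN, 25 at JUNB and 9 at JUND. Of the 53 peaks, 37 were Fra-1 peaks and 16 were DDX5 peaks.

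The study mapped Fra-1 and DDX5 by chromatin immunoprecipitation and sequencing in untreated BT549 cells, a human breast cancer line without oestrogen receptor alpha. There were 4 libraries, all from this line: a ChIP with a Fra-1 antibody, a ChIP with a DDX5 antibody, a ChIP with normal rabbit IgG, and input DNA, which was not immunoprecipitated. The series asked which sites Fra-1 and DDX5 share and which belong to 1 of them. Each antibody has 1 library, so no difference could be tested over replicates, and every interval below is a 95% interval that covers counting error only.

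Fos proteins cannot pair with themselves and bind DNA as dimers with a Jun protein, on palindromes of the form TGANTCA. Dimers of Jun proteins with ATF proteins favour the longer palindrome TGACGTCA. JUN and JUNB are immediate-early genes, and binding of AP-1 at the JUN promoter is a textbook case of a factor acting on its own gene. JUN is the strongest activator of the 3, JUNB is a weaker activator that often opposes JUN, and JUND is the member expressed most steadily in resting cells. DDX5 is an RNA helicase that also serves as a coactivator of several transcription factors.

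The sequences upstream of the 3 genes are shown because the Jun genes differ in the AP-1-like letters they carry there. They are the 250 bases before each gene's start, 5′ to 3′ on the strand of the gene, from RefSeq on GRCh38.p14. Capitals mark matches, on either strand, to TGANTCA, TGACGTCA, TGACATCA or the half-site TGACG, which TGACGTCA also contains. Their positions belong to GRCh38.p14 and cannot be set beside the hg19 positions of the peaks.
JUN (chr1:58784048-58784297, minus strand): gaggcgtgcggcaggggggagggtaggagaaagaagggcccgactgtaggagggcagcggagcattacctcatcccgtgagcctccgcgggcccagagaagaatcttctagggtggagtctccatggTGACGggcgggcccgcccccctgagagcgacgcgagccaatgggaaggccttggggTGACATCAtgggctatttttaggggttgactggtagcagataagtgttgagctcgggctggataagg
JUNB (chr19:12791236-12791485, plus strand): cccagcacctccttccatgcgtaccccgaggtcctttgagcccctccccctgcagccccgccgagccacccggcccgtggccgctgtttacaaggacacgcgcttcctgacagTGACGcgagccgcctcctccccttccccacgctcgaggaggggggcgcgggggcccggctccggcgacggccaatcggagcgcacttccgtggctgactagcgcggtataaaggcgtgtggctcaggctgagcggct
JUND (chr19:18281623-18281872, minus strand): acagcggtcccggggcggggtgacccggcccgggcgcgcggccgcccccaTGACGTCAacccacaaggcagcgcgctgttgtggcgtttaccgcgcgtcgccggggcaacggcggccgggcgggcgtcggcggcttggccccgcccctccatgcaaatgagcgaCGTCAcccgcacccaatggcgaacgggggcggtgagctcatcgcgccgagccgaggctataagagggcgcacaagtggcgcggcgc

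None of the 3 stretches holds TGANTCA (N counted as any base), which 6.57% of the 35116 RefSeq promoter stretches of this length hold. The JUN stretch has TGACATCA, 67 to 60 bases before the gene's start, a sequence found in 2.37% of all stretches. It also has a half-site, 123 to 119 bases before the start. The JUND stretch has TGACGTCA, 200 to 193 bases before the start, found in 1.65% of all stretches, and a separate half-site 86 to 82 bases before it. JUNB has a single half-site, 137 to 133 bases before its start, and 21.2% of all stretches have at least 1. These are matches of letters and say nothing of binding. Only the patterns named above were searched, so other AP-1-like letters in the stretches remain in lower case. Which hg19 peak covers which promoter was not analysed here, and peaks are therefore given by position and not by distance from a gene. In RefSeq the protein-coding genes next to JUN are MYSM1 and FGGY, those next to JUNB are HOOK2 and PRDX2, and those next to JUND are IQCN and LSM4, and no peak was assigned to any of them.

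**Figure D1:**
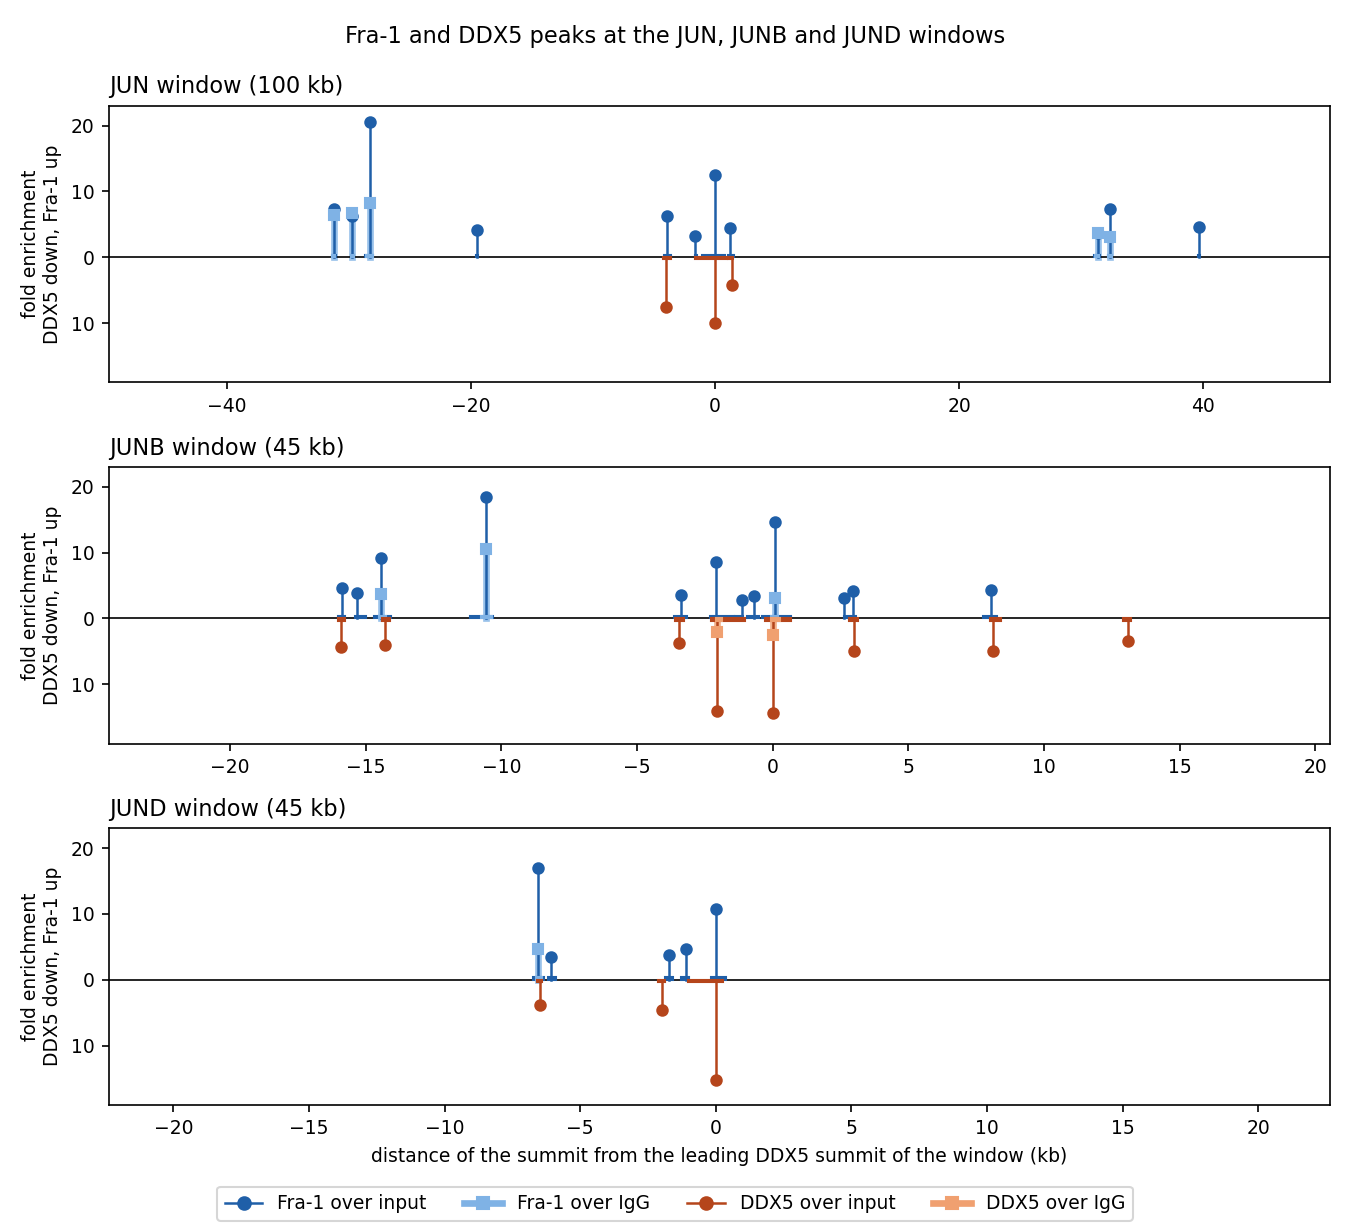
Every listed peak of the 3 windows, by the distance of its summit from the window's leading DDX5 summit (kb), with Fra-1 fold drawn upward and DDX5 fold downward. Lines with circles are folds over input, thick lines with squares are folds over IgG, and the bars at 0 give peak widths to scale; at JUN the Fra-1 peaks called over IgG lie 28.2 to 32.4 kb from the leading DDX5 summit.

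All 3 windows were crowded with Fra-1 peaks over input, that is, against the sheared DNA that went into the immunoprecipitation. Fra-1 had 11 such peaks at JUN, 12 at JUNB and 5 at JUND. This is 11, 26.7 and 11.1 peaks per 100 kb, against 1.41 per 100 kb over the whole of chromosome 1 and 1.85 over chromosome 19. DDX5 had 3, 8 and 3 peaks over input, or 3.0, 17.8 and 6.67 per 100 kb, against 0.582 on chromosome 1 and 1.46 on chromosome 19. Against IgG, Fra-1 had 5 peaks at JUN, 3 at JUNB and only 1 at JUND. This is 5, 6.67 and 2.22 per 100 kb, against 0.656 on chromosome 1 and 0.484 on chromosome 19. Peaks of 1 list crowd together along chromosomes, so these densities compare the windows with an average and not with other gene-rich stretches. When overlapping peaks of the 4 lists were joined, JUN had 10 sites, JUNB 11 and JUND 4.

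DDX5 was seldom found in these windows without Fra-1. A Fra-1 peak over input lay on 13 of its 14 peaks over input (92.9%, interval 66.1% to 99.8%), where 61.8% of all DDX5 peaks carried one. Seen from Fra-1, 17 of 28 peaks (60.7%, 40.6% to 78.5%) overlapped DDX5, where 21.8% of the whole list did. The share was 4 of 11 at JUN, 9 of 12 at JUNB and 4 of 5 at JUND. Both antibodies were compared with the same input library here, so its chance values enter both lists.

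At JUN, the strongest Fra-1 site lay far from DDX5. It spanned 59220982 to 59221598, with a Fra-1 pileup (the depth of fragments at the summit) of 139 (interval 117 to 164) and a fold of 20.6 over input, which 4.42% of Fra-1 peaks reach or exceed. Over IgG the same summit stood at 8.26-fold. A pair of weaker Fra-1 sites lay beside it, at 59218283 to 59218596 (7.36-fold over input, 6.36-fold over IgG) and at 59219813 to 59220061 (6.23-fold and 6.77-fold). All 3 were called with both controls and none overlapped DDX5.

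A second group of Fra-1 sites lay on the other side of the JUN window. The site at 59281836 to 59282193 had a pileup of 61, a fold of 7.25 over input and 3.05 over IgG. Its neighbour at 59280707 to 59281157 had 3.66-fold over input and 3.64-fold over IgG. The IgG level, that is, the local background in the IgG library, was 17.0 fragments at the former and 6.80 at the latter. These 2 sites and the 3 before are all of the JUN sites called over IgG, and their summits lay 28.2 to 32.4 kb from the leading DDX5 summit.

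DDX5 at JUN was gathered in the stretch between those groups. Its leading peak ran from 59248001 to 59250592, and its width of 2592 bp was the 22nd of 10836 DDX5 peaks over input. The pileup was 54 (40.6 to 70.5) and the fold 10.1, a value that 0.978% of DDX5 peaks reach. Beside it were a peak at 59245396 to 59246041 (7.64-fold, pileup 38) and a peak at 59250665 to 59251145 (4.28-fold, pileup 29).

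Fra-1 over input covered the same stretch. Its peak at 59248578 to 59250453 was 1876 bp wide, the 40th of 30571, with a pileup of 74 (58.1 to 92.9) and a fold of 12.4. Its summit was 23 bp from the DDX5 summit. The other Fra-1 peaks there were at 59245438 to 59246019 (6.30-fold), 59250685 to 59251218 (4.41-fold) and, also under the wide DDX5 peak, 59247958 to 59248171 (3.27-fold). None of these 4 Fra-1 peaks and none of the 3 DDX5 peaks was called over IgG. At JUN, 0 of the 5 Fra-1 peaks called over IgG overlapped DDX5 (interval 0% to 52.2%), near the 9.38% of such peaks in the whole list. Of the 6 not called over IgG, 4 did (22.3% to 95.7%), where 34.4% did in the whole list. The remaining 2 Fra-1 peaks, at 59230036 to 59230237 (4.09-fold) and 59289190 to 59289399 (4.52-fold), were listed over input alone, without DDX5.

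JUNB had the site of the 3 windows that was in all 4 lists. It spanned 12904054 to 12905133. Fra-1 had a pileup of 87 (69.7 to 107) there and was 14.6-fold over input and 3.12-fold over IgG. DDX5 had a pileup of 70 (54.6 to 88.4) and was 14.4-fold over input and 2.53-fold over IgG, and the summits of the lists over input lay 91 bp apart. The IgG level was 24.0 fragments at the Fra-1 summit over IgG and 27.0 at the DDX5 summit, against medians of 5.20 and 14.0 in those lists. Of the 16133 Fra-1 peaks over IgG, 8 (0.0496%) overlapped a DDX5 peak over IgG, and this site holds 1 of them. The DDX5 list over IgG held 61 peaks, of which 8 (13.1%) overlapped a Fra-1 peak over IgG. The folds over IgG at this site were low in both lists, with 96.9% of Fra-1 and 68.9% of DDX5 peaks at or above them.

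The other broad JUNB site lay 2.04 kb away, from 12902141 to 12903438. DDX5 was at its highest in the 3 windows there by pileup, 93 (75.1 to 114), with 14.1-fold over input and 2.13-fold over IgG. Fra-1 had a pileup of 66 (51.0 to 84.0) and 8.62-fold over input, and no Fra-1 peak was called over IgG. The IgG level under the DDX5 summit was 43.0 fragments, the highest at any of the 11 peaks called over IgG in the windows. At the depth of the IgG library the Fra-1 pileup was 58.4 and the DDX5 pileup 92.8. The IgG level was read at the DDX5 summit, 49 bp from the Fra-1 summit, so no Fra-1 fold over IgG is given. A second, weak Fra-1 peak of the site, at 12903086 to 12903353, had 2.74-fold.

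JUNB also had a strong Fra-1 site without DDX5. At 12893321 to 12894144 Fra-1 had a pileup of 107 (87.7 to 129), 18.5-fold over input and 10.6-fold over IgG, the highest fold over IgG in the 3 windows. The IgG level there was 8.0. It lay 10.6 kb from the leading DDX5 summit. A further Fra-1 site, at 12889765 to 12890384, was 9.20-fold over input and 3.65-fold over IgG, and a DDX5 peak of 4.08-fold (pileup 14) overlapped it with its summit 153 bp away.

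The other 7 JUNB sites had at most 5.0-fold for either antibody, and 4 of them were shared. At 12888441 to 12888686 Fra-1 was 4.66-fold and DDX5 4.35-fold over input, and at 12912216 to 12912896 Fra-1 was 4.37-fold and DDX5 5.0-fold. The site with the lowest Fra-1 fold, at 12903519 to 12903969, had 3.48-fold and no DDX5. The highest Fra-1 fold at each of the other 3 sites with Fra-1 was 3.60 to 4.11, and 1 of these, at 12889050 to 12889479 (3.82-fold), also lacked DDX5. The DDX5 peak at 12917393 to 12917677 (3.48-fold, pileup 21), named because it is the exception, was the only DDX5 peak of the 3 windows that overlapped no Fra-1 peak.

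JUND had 2 main sites, where the antibodies stood at different levels relative to each other. The site at 18385634 to 18386016 had a Fra-1 pileup of 82 (65.2 to 102), with 17.0-fold over input and 4.59-fold over IgG, and a DDX5 pileup of 16 with 3.84-fold over input. The site at 18391096 to 18392735, whose DDX5 summit lay 6.47 kb from the DDX5 summit of the former, had a DDX5 pileup of 55 (41.4 to 71.6) and a DDX5 fold of 15.2. This was the 39th highest fold of the DDX5 list over input and the highest in the 3 windows. It was taken over an input level of 2.68, the lowest in that list. By pileup, the JUNB peaks at 93 and 70 stood above it. At this JUND site Fra-1 had a pileup of 42 (30.3 to 56.8) and 10.7-fold over input, 18 bp from the DDX5 summit. The input level for Fra-1, 3.02, was also the lowest in its list. Neither antibody was called over IgG. A second Fra-1 peak of the site, at 18391096 to 18391385, had 4.72-fold.

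The remaining JUND sites were weak. At 18390232 to 18390803 the DDX5 peak had 4.65-fold and the Fra-1 peak 3.73-fold, with summits 274 bp apart. At 18386164 to 18386459 Fra-1 had 3.53-fold and DDX5 was not listed.

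**Figure D2:**
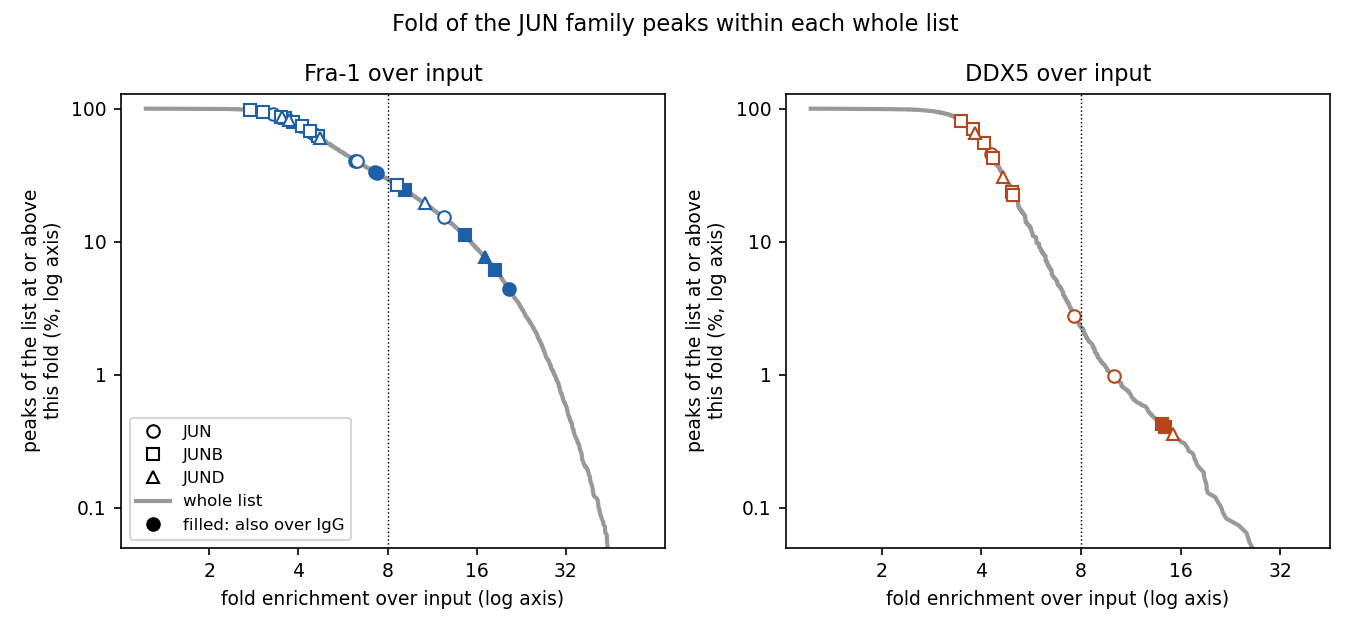
Fold over input of each peak in the windows (x axis, log scale) against the percentage of its whole list at or above that fold (y axis, log scale), for Fra-1 and DDX5. Circles are JUN, squares JUNB, triangles JUND, filled symbols are peaks also called over IgG, and the dotted line is at 8-fold: 8 of 28 Fra-1 peaks and 4 of 14 DDX5 peaks lie at or beyond it.

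Set against the whole lists, the folds of Fra-1 in the windows were ordinary and those of DDX5 were high at 4 sites. Of the 28 Fra-1 peaks over input, 8 reached 8-fold (28.6%, 13.2% to 48.7%), where 29.5% of all Fra-1 peaks did. Their median fold was 4.59, against 5.37 in the list. Of the 14 DDX5 peaks over input, 4 reached 8-fold (28.6%, 8.39% to 58.1%), where 2.28% of all DDX5 peaks did. The median DDX5 fold was 4.81, against 4.16 in the list, and the remaining 10 peaks had 3.48-fold to 7.64-fold. The 4 were 1 at JUN, 2 at JUNB and 1 at JUND, and all 4 overlapped Fra-1, where 96.8% of such DDX5 peaks overlapped it genome-wide. Over the 3 windows together, input levels were slightly above those of the lists. Their median was 4.84 at the Fra-1 peaks against 4.45 in the list, and 3.95 at the DDX5 peaks against 3.83. The windows differed, with Fra-1 medians of 5.42 at JUN, 4.84 at JUNB and 3.29 at JUND. The DDX5 medians were 4.46, 3.78 and 3.43 in the same order.

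Wide peaks were found at the same sites. A width of at least 1000 bp was reached by 3 of 14 DDX5 peaks (interval 4.66% to 50.8%), 1 in each window, where 2.47% of all DDX5 peaks reached it. Among Fra-1 peaks 2 of 28 did (0.877% to 23.5%), where 1.82% did in the whole list. The 3 wide DDX5 peaks, of 2592 bp at JUN, 1237 bp at JUNB and 1286 bp at JUND, were enriched 10.1, 14.1 and 15.2 times over input.

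The choice of control divided the windows. Of the 28 Fra-1 peaks over input, 9 (32.1%, 15.9% to 52.4%) were called again over IgG, where 50.5% of all Fra-1 peaks were. Of the 14 DDX5 peaks over input, 2 (14.3%, 1.78% to 42.8%) were called again, both at JUNB, where 0.508% of all DDX5 peaks were. The folds of these 2 over IgG, 2.53 and 2.13, lay below the median of 3.05 of the 61 DDX5 peaks over IgG. Of the 4 DDX5 peaks of at least 8-fold, 2 were called again (interval 6.76% to 93.2%), where 13% of such peaks were. Among the 9 Fra-1 peaks that IgG kept, 3 overlapped DDX5 (7.49% to 70.1%), where 9.38% of such peaks did. Among the 19 not called again 14 did (48.8% to 90.9%), where 34.4% did. Counted in the Fra-1 list over IgG, 3 of 9 peaks overlapped DDX5 over input (7.49% to 70.1%), where 8.68% of that list did. Of the 8 Fra-1 peaks of at least 8-fold, 5 were called again (24.5% to 91.5%), where 97.6% of such peaks were in the whole list. The other 3 were the wide or broad shared sites at 59248578 (JUN), 12902141 (JUNB) and 18392190 (JUND), 1 in each window. In the whole list 216 Fra-1 peaks of at least 8-fold were not called over IgG, and 182 of those (84.3%) overlapped a DDX5 peak over input.

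**Figure D3:**
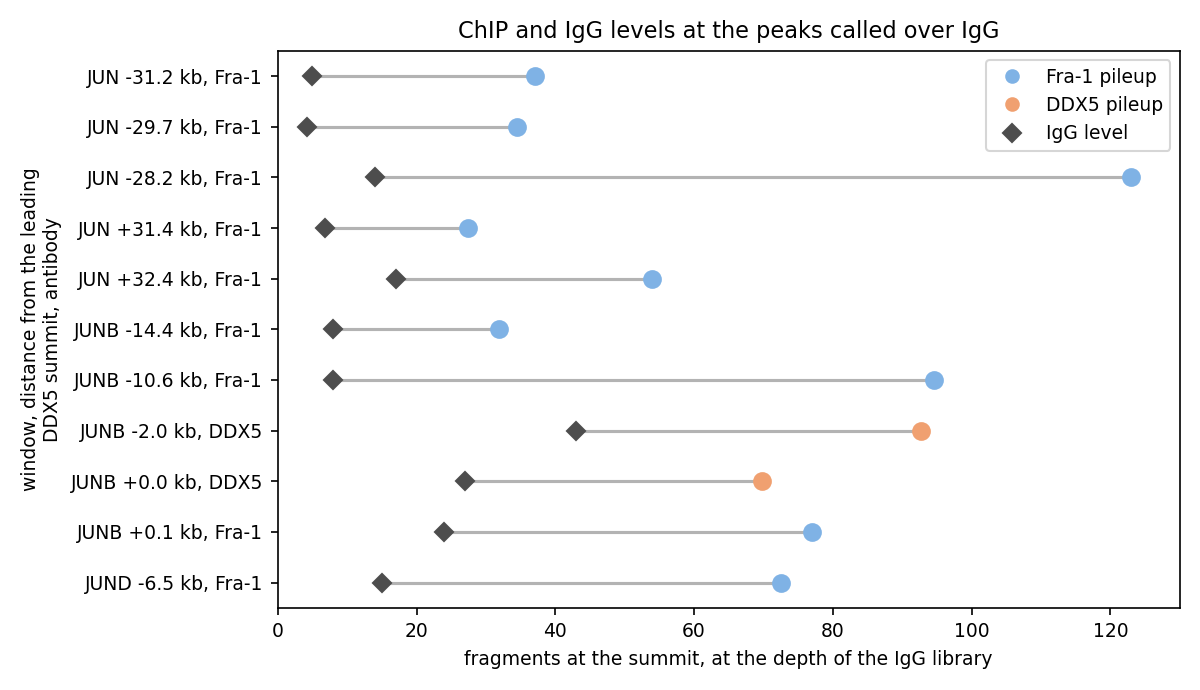
Fragments at the summit for the 11 peaks of the windows called over IgG, at the depth of the IgG library: circles are the Fra-1 or DDX5 pileup, diamonds the IgG level, and each row is a peak named by its window and its distance from the leading DDX5 summit. The IgG level is 4.24 to 17.0 at the JUN peaks and 24.0 to 43.0 at the 3 peaks of the 2 broad JUNB sites.

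The IgG level itself was uneven over the windows. At the 9 Fra-1 peaks over IgG its median was 8.0, against 5.20 in the whole list, and it went from 4.24 at 59219815 (JUN) to 24.0 at 12904398 (JUNB). It was 15.0 at the JUND peak. The Fra-1 fold over IgG had a median of 4.59 against 6.82 in the list. At least 8-fold was reached by 2 of 9 peaks (interval 2.81% to 60%), where 38.8% of all Fra-1 peaks over IgG did. At the 3 shared sites of JUN, and at the JUND sites at 18390232 and 18391096, no peak was called over IgG, so no IgG level can be read there. What the antibodies or the IgG bound at the shared sites was not tested.

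**Figure D4:**
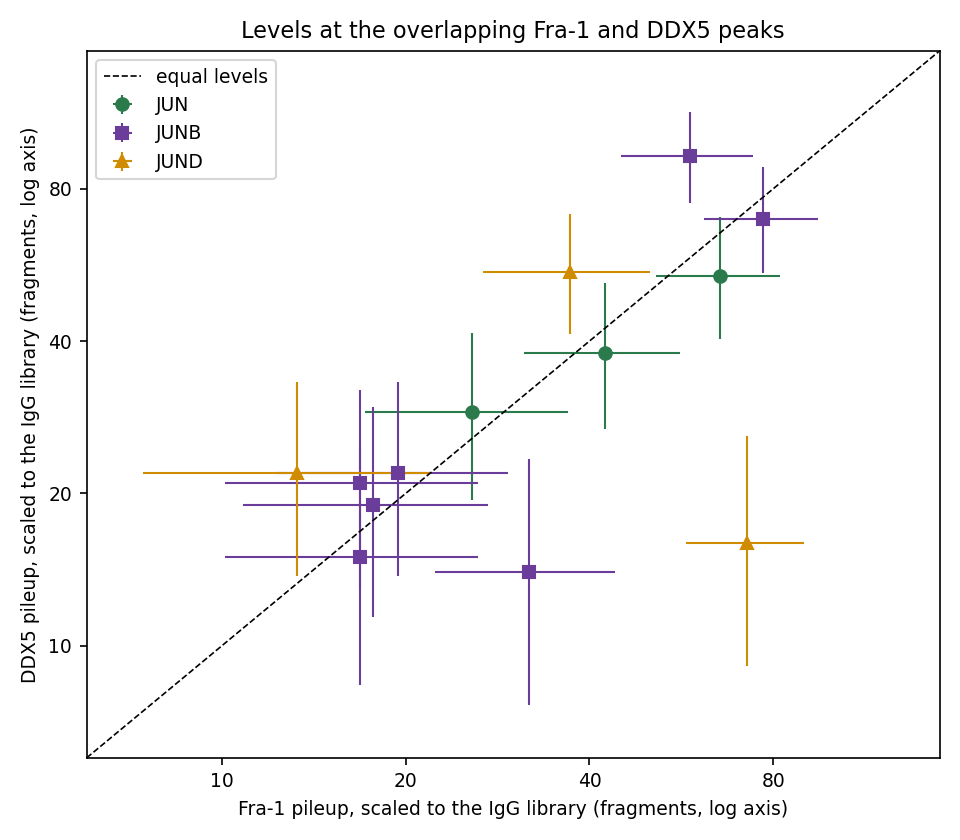
Fra-1 pileup (x axis) and DDX5 pileup (y axis) at the 13 pairs of overlapping peaks over input, both scaled to the depth of the IgG library, in fragments on log axes. Bars are 95% Poisson intervals and the dashed line marks equal levels; the JUND point at a Fra-1 level of 72.5 and a DDX5 level of 16.0 lies farthest below it.

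Fra-1 and DDX5 pileups at the shared sites were compared after the libraries were put on 1 depth. They were scaled for depth only, without removing background or allowing for how well each antibody captures its target. A ratio therefore does not measure how much of each protein was bound. At the JUNB site at 12904054 the IgG level was 24.0 fragments under a Fra-1 pileup of 76.9. Under the DDX5 pileup of 69.8 it was 27.0. The scaled DDX5 pileup divided by the scaled Fra-1 pileup had a median of 1.07 over the 13 pairs, against 0.959 over all 6700 pairs of overlapping peaks. The DDX5 pileup was the higher in 7 of 13 pairs (interval 25.1% to 80.8%), where it was in 45.1% of all pairs. At 10 of the 13 the interval of the ratio included 1, so a difference was not detectable at this depth, and 76.6% of all pairs were of this kind. In the whole list the interval lay above 1 for 2.04% of pairs and below 1 for 21.4%. In the windows it lay above 1 at the JUNB site at 12902141, with a ratio of 1.59 (1.15 to 2.21), which 3.84% of all pairs reach. It lay below 1 at the JUNB site at 12889765, with a ratio of 0.439 (0.219 to 0.833), and at the JUND site at 18385634, with 0.220 (0.12 to 0.379), both of which were called for Fra-1 over IgG. At the wide JUN site the ratio was 0.823 (0.569 to 1.19), at the JUNB site at 12904054 it was 0.908 (0.653 to 1.26), and at the JUND site at 18391096 it was 1.48 (0.971 to 2.26), an interval that did not overlap that of the other main JUND site. The summits of the pairs lay a median of 73 bp apart, as over all pairs, and 9 of 13 were within 100 bp, where 60.1% of all pairs were.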

How the data were processed

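Each of the 4 deposited lists compares 1 ChIP library with 1 control library. The submitters' processing notes name CASAVA 1.8, Bowtie 0.12.9, HOMER and hg19. The peak caller is not given in the sources used here. Per the file headers, the deposited signal is a pileup at the summit and the fold enrichment is a ratio. A pair of unnamed columns holds −log10 values, taken as the authors' −log10 p-value and q-value. In the 42 member peaks over input the former matched a Poisson tail of the pileup to within 0.01. Absolute depth is unknown.

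Dividing the pileup plus 1 by the fold and subtracting 1 gave the control level. It is a local background estimate with a floor of 2.67 to 3.02. Pileups over IgG were 0.884 (Fra-1) and 0.998 (DDX5) times those over input at shared summits, and these factors scaled both antibodies to the IgG library. Ratio intervals are exact binomial intervals of the 2 unscaled pileups. Share intervals are exact (Clopper-Pearson) and pileup intervals exact Poisson, at 95%. Summits are maxima, so their pileups are biased upward. Overlap means at least 1 bp, and the overlap code was tested on simulated data. Pairs take the Fra-1 peak with the nearest summit. Densities take the last listed peak end as the chromosome's length.

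The members, lists and tests were chosen with earlier results of these data known. All JUN and JUND sites are named. At JUNB, which has over 10 sites, those in 3 or more lists, the 5 highest for Fra-1, the 3 highest for DDX5 and the lowest for Fra-1 are named, by fold over input. Alternatives were other thresholds, overlap rules, controls and window extents. Peaks at other AP-1 and JNK pathway genes need an hg19 annotation and were not analysed here. Scripts used scipy 1.17.1, numpy 2.4.6 and pandas 2.3.3 under Python 3.11.15, with matplotlib 3.10.9 for plots.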

Additional observations from a re-analysis of the deposited data

How the results depend on the processing

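Across 37 alternatives, 21 values lay inside the 95% interval of the value reported above (for a count of peaks, inside 1.5 times of it). Widening each window by 10 kb, chosen after the data were seen, moved none of the values past these bounds, nor did placing peaks by summit. At 8-fold the windows kept 8 and 2 Fra-1 peaks (over input and over IgG) and 4 and 0 DDX5 peaks. At or above the median −log10 q of each list, a cut that about 50% of a list passes by definition, they kept 12, 3, 9 and 1 in the same order. The share of Fra-1 peaks with DDX5, 60.7%, became 25% with centres within 100 bp, 33.3% when Fra-1 was taken over IgG but DDX5 over input, and 11.1% with both over IgG. The share of DDX5 peaks with Fra-1, 92.9%, became 50% with centres within 100 bp. It became 55.6% with both lists at or above their median −log10 q and 100% with both at 8-fold. With both over IgG it was 50%, where 13.1% of all DDX5 peaks over IgG overlapped. Whole-list shares were not computed under the rules on centres, medians and 8-fold. Whether the windows differ from the lists under those rules was therefore not tested. The median Fra-1 fold, 4.59, became 9.95 above the median −log10 q. Stricter thresholds and overlap rules lower counts by construction. For the other moves the cause was not tested. With 2 to 28 peaks a share, the intervals are wide. No paired analysis was possible because each antibody has 1 library. The planned counts at AP-1 and JNK pathway genes were not run.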
